A study of Mus musculus with 11 samples.

Results

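The HoxC and HoxD gene clusters of the mouse were examined at the level of single cytosines. The members are all C positions of CpG sites with a coverage of at least 10 reads inside chr15:102910000-103045000 (HoxC) and chr2:74660000-74772000 (HoxD), build GRCm38. A position was chosen by where it lies and not by its methylation. Of 2569 such positions listed in at least one of 11 libraries, 2001 were listed in all 10 libraries with a clear genotype (814 in HoxC and 1187 in HoxD), out of 1293035 positions of the whole genome listed in the same 10. RefSeq (GRCm38.p6) places 15 genes in or across the HoxC interval and 16 in or across the HoxD interval.

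Enhanced reduced representation bisulfite sequencing (ERRBS), which reads cytosine methylation in MspI-cut DNA, had been applied to bone marrow progenitors of C57BL/6 mice aged 12 months. Every animal carried a floxed Dnmt3a gene and had received 5 intraperitoneal injections of poly(I:C), so the controls share both the floxed allele and the treatment. Control animals lacked Cre and knockout animals carried Mx1-Cre, whose promoter responds to interferon and is active in many cell types besides blood cells. The groups were LSK control (libraries 1326, 1330 and 1331), LSK knockout (1327, 1333 and 1334), GMP control (346 and 349) and GMP labelled knockout (178 and 179), LSK being the Lin- Sca1+ cKit+ fraction that holds the stem cells and GMP the Lin- Sca1- cKit+ CD34+ FcgR+ granulocyte-macrophage progenitors. GMP library 352 has a title naming Mx1-Cre and a genotype field naming no Cre, and its values are shown apart. Nothing in the labels says that each library is a separate animal, so every p reflects library-to-library spread only, which may be technical.

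Hox genes encode homeodomain transcription factors that set position along the body axis, and they lie in the genome in the order in which they act. Several HoxA and HoxB members are well known in blood stem cells and leukaemia, whereas HoxC and HoxD members are best known from limb, trunk and genital development. Hox clusters are rich in CpG islands that are commonly bound by Polycomb complexes and carry little DNA methylation. Dnmt3a is one of the enzymes that add methyl groups to unmethylated CpG sites.

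Depth differed by cell type, the coverage of all listed positions adding up to 157.3 to 181.1 M per LSK library and 95.4 to 109.7 M per GMP library. Within the 2 clusters the mean coverage per listed position was 99.4 to 124 reads in LSK and 58.3 to 70.3 in GMP. Of 356 C positions inside Dnmt3a listed in every control library, 347 to 351 were listed in the LSK knockout libraries. Library 178 listed 351 of them, library 179 listed 356 and library 352 listed 330. The targeted gene was checked by the 5 positions, in a single segment, that none of the 3 LSK knockout libraries listed. Their absence in LSK knockouts defines them and is not a result. None of these 5 positions was listed in library 352, whereas 4 were listed in library 178 and 5 in library 179. This goes against the label of libraries 178 and 179, which are called the GMP libraries labelled knockout throughout. The direction of every GMP difference rests on that label, and whether recombination was incomplete or the label is wrong was not tested. C positions of Mpo, a granule enzyme of the granulocyte lineage, served as a check of the cell types. They stood at 88.8% ± 0.630 (SD, n = 3) in control LSK and 48.1% ± 0.0781 (SD, n = 2) in control GMP. Mpo had the largest gap of the GMP marker genes. Ctsg (90.4% and 52.1%), Elane (94.3% and 85.5%) and Prtn3 (7.87% and 5.15%) were also lower in control GMP, but Csf1r was not (93.65% and 94.97%). The LSK marker genes Hlf (29.4% and 30.6%), Procr and Meis1 did not differ beyond their spread. Mecom (32.34% and 36.03%) and Mllt3 (18.10% and 22.45%), also LSK markers, were higher in control GMP. No position of the T cell gene Cd3e was measured. Over all 1293035 shared positions the mean level was 32.9% to 33.1% in control LSK, 31.9% to 32.2% in knockout LSK, 32.7% to 32.8% in control GMP and 31.9% to 32.0% in the GMP libraries labelled knockout.

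As examples, 4 stretches of HoxD sequence of very different CpG content are shown here from RefSeq (GRCm38.p6) as the 250 bases before each annotated start, on the plus strand. Capital C marks a cytosine read on that strand in all 10 assigned libraries, and capital G one read on the opposite strand. Hoxd12 is shown because the tile over its start had the smallest p of the member tiles in LSK, Hoxd10 because it differed between the cell types, Hoxd1 as an example of a dense CpG stretch near 0%, and Hoxd4 because its CpG-poor start was partly methylated.
Hoxd12, chr2:74674763-74675012: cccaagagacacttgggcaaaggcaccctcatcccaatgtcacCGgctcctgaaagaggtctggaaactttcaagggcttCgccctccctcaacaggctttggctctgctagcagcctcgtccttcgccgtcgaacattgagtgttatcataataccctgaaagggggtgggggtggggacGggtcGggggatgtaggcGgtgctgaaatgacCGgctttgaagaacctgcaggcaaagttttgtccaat
Hoxd10, chr2:74691641-74691890: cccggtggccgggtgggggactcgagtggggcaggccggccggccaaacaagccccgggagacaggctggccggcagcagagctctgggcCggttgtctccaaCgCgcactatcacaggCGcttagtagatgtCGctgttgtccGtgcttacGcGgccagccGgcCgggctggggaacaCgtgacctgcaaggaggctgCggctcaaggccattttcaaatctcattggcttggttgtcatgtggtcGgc
Hoxd1, chr2:74762730-74762979: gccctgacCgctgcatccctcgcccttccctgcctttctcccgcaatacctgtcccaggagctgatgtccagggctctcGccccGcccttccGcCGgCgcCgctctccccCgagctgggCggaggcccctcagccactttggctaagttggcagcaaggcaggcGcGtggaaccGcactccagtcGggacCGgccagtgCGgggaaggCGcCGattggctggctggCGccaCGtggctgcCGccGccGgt
Hoxd4, chr2:74721728-74721977: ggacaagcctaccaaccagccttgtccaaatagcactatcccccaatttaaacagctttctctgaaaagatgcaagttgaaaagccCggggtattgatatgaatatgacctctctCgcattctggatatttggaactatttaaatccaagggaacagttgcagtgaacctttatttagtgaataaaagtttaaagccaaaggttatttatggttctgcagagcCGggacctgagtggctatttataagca
The Hoxd1 stretch holds 24 CpG sites and 3 CCGG sites, the sequence cut by MspI, and its 30 measured cytosines stood at 2.20% ± 0.175 (SD, n = 3) in control LSK. Hoxd10 holds 20 CpG and 9 CCGG sites, and its 15 measured cytosines ranged in pooled control LSK reads from 0% at 71 bases before the start to 19.9% at 130 bases before it. Hoxd12 holds 10 CpG sites, and 7 of its 8 measured cytosines were at or under 4.68%, while the one 170 bases before the start stood at 28.2%. Hoxd4 holds only 3 CpG sites in a stretch of 40.4% G and C, and its 4 measured cytosines stood between 7.91% and 36.6%. Of all 32851 RefSeq promoter windows of 300 bases (250 before and 50 after the start), 52.8% contain CCGG, as do 14 of the 20 windows in the 2 intervals. At all 212 listed positions inside these windows the reference base was the expected C, or G for a C on the other strand.

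The clusters also hold 3 microRNA genes, which differ in the methylation around them and are shown with the seed (bases 2 to 8) in capitals.
miR-10b-5p: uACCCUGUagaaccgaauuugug
miR-196a-5p: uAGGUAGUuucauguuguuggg
miR-615-3p: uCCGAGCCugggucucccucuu
The 3 seeds differ. Positions within 1000 bp of the lower end of Mir10b, which lies inside the Hoxd3 and Hoxd4 gene spans, stood at 65.9% ± 1.95 (SD, n = 3) in control LSK. The same measure was 3.03% ± 0.782 for Mir196a-2, between Hoxc10 and Hoxc9, and 6.45% ± 0.718 for Mir615, inside Hoxc5.

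Methylation of both clusters was low in control LSK. Of the 814 HoxC positions 64.0% had a pooled level under 5% and 5 positions stood at 50% or more, and of the 1187 HoxD positions 69.0% were under 5% and 28 stood at 50% or more. In consecutive tiles of 1000 bp, 52 HoxC and 47 HoxD tiles had at least 3 positions in all 6 LSK libraries, out of 135 and 112 tiles in the intervals. The median tile level was 5.39% in HoxC and 5.87% in HoxD against 88.9% over all 107074 tested tiles. Tiles with 20 or more positions were lower, with medians of 3.45% in HoxC (15 tiles) and 3.77% in HoxD (21 tiles), than those with fewer, with medians of 6.84% (37 tiles) and 9.90% (26 tiles). The 2 strands of a CpG gave similar values, with a median difference of 1.39 percentage points over 144 HoxC sites and 1.36 over 197 HoxD sites.

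**Figure D1:**
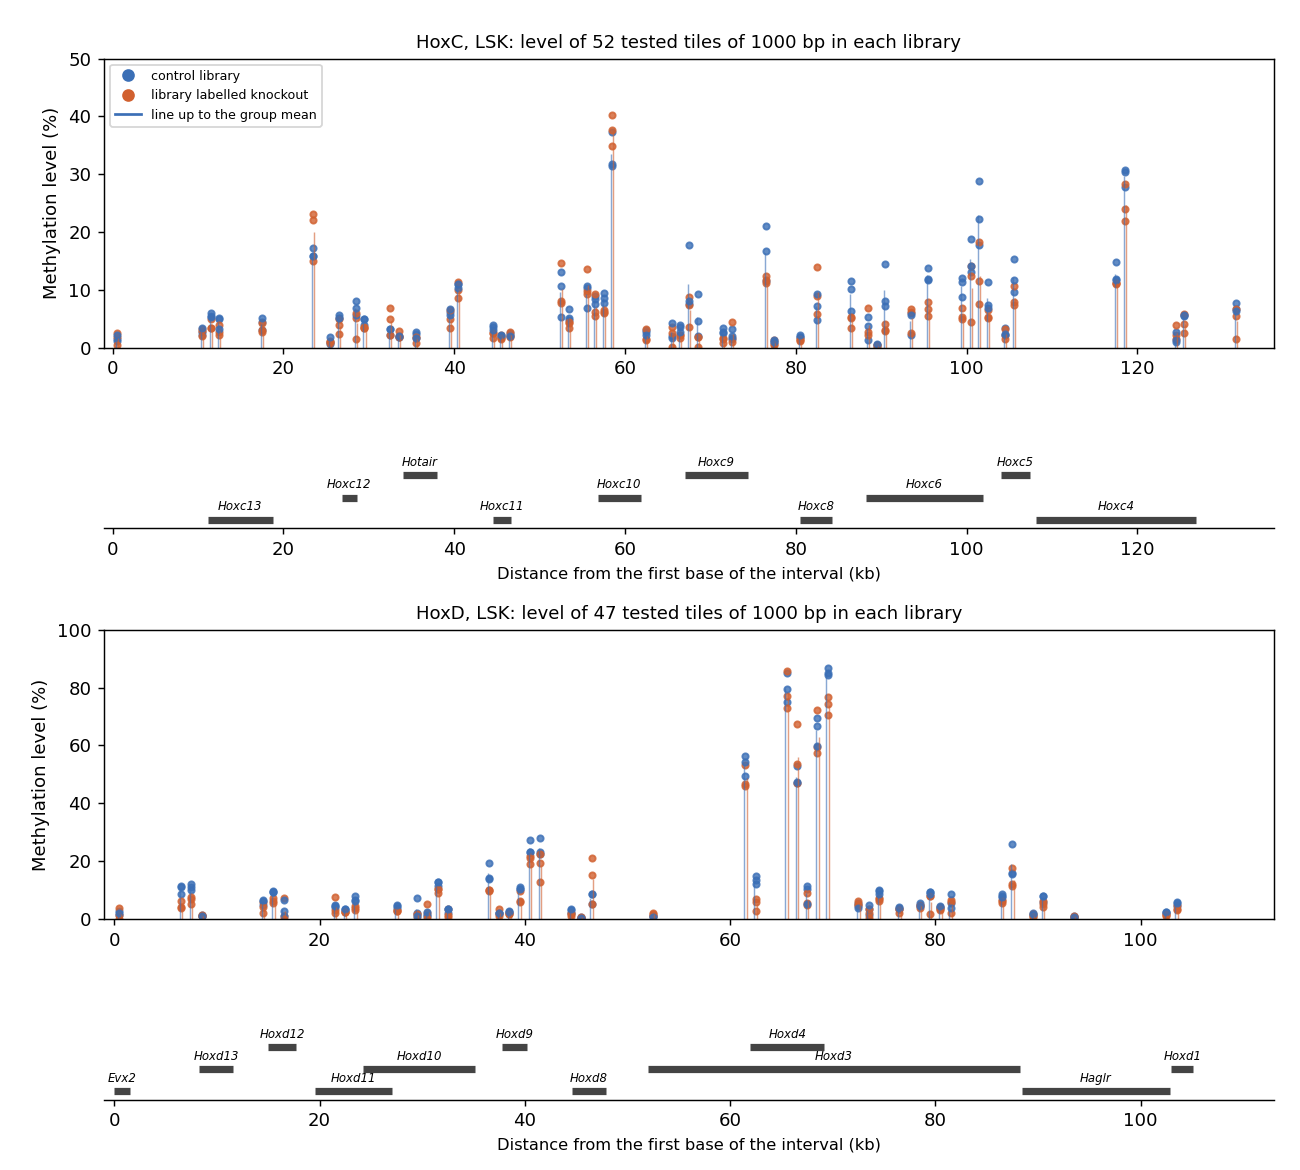
Methylation level (%) of each tested 1000-bp tile in each LSK library against the distance from the first base of the interval (kb), with gene spans drawn under each panel. Points are libraries and lines reach the group means. Of the tiles, 40 of 52 in HoxC and 33 of 47 in HoxD lie under 10%, and the 5 highest HoxD tiles all lie in the Hoxd3 span.

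In HoxC no tile reached 50% in control LSK. The highest was the tile in Hoxc10, a posterior gene, at chr15:102968001-102969000, which measured 31.5%, 37.3% and 31.8% in the 3 control libraries and 34.9%, 40.2% and 37.6% in the 3 knockout libraries. The tile in Hoxc4 at chr15:103028001-103029000 measured 27.8%, 30.4% and 30.7% in controls and 21.9%, 28.4% and 23.9% in knockouts. The knockout values of these 2 tiles overlap the control values. Over whole gene spans, Hoxc8 (2.29% ± 0.389), Hoxc11 (2.71% ± 0.224), Hoxc9 (4.38% ± 0.262) and Hoxc13 (5.41% ± 0.190) were low in control LSK. Higher spans were Hoxc12 (6.64% ± 0.580), Hoxc5 (7.08% ± 0.696), Hoxc4 (9.87% ± 1.76), Hoxc10 (10.9% ± 0.470) and Hoxc6 (13% ± 2.41, SD, n = 3 for each span). Hotair, the long RNA read from between Hoxc11 and Hoxc12, stood at 5.59% ± 2.21 over 11 positions. Hoxc8 and Hoxc11, Hoxc12 and Hoxc5, and the 3 highest spans among themselves differ by less than the sum of their SDs.

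In HoxD the annotated starts, measured within 1000 bp, covered a wide range in control LSK. The starts of Hoxd3 (0.814% ± 0.169) and Hoxd8 (1.26% ± 0.240) were nearly unmethylated, and those of Hoxd9 (2.73% ± 0.029) and Hoxd13 (2.75% ± 0.134) did not differ beyond their spread. Hoxd11 (4.21% ± 0.278) and Hoxd1 (4.41% ± 0.563) did not differ beyond their spread either. Hoxd12 (9.11% ± 0.153) and Hoxd10 (11.4% ± 0.571) were higher, and Hoxd4 (45.0% ± 1.89) stood above all other HoxD starts named here (SD, n = 3 for each). The order of the levels does not follow the order of the genes along the cluster.

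The start of Hoxd4, an anterior HoxD gene, opens a methylated stretch that runs past Mir10b. Control LSK libraries measured 56.4%, 54.3% and 49.5% at the start tile chr2:74721001-74722000, 75%, 85.1% and 79.5% at chr2:74725001-74726000 and 52.9%, 47.1% and 47.4% at the Mir10b tile chr2:74726001-74727000. They measured 66.6%, 69.7% and 59.7% at chr2:74728001-74729000 and 84.2%, 86.6% and 85.1% at chr2:74729001-74730000. These tiles hold only 3 to 8 positions each. Between them the tile chr2:74727001-74728000, with 32 positions, was at 9.05% ± 3.25 and the tile chr2:74722001-74723000, with 3 positions, at 13.6% ± 1.46 (SD, n = 3). High and low tiles thus alternate along the Hoxd4 span and around its ends, the first and last of these tiles lying almost wholly outside it.

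The mean level of both clusters was slightly lower in knockout than in control LSK. Over libraries it was 5.87% ± 0.322 against 4.56% ± 0.431 in HoxC and 6.26% ± 0.182 against 5.11% ± 0.369 in HoxD (SD, n = 3 each). Averaged over the 814 HoxC positions, the control libraries measured 5.55%, 6.19% and 5.87% and the knockouts 4.74%, 4.87% and 4.07%. The difference was -1.31 percentage points. Over the 1187 HoxD positions the controls measured 6.22%, 6.46% and 6.10% and the knockouts 5.42%, 5.21% and 4.71%. The difference was -1.14 points. Every knockout library lay below every control library in both clusters, and the exact two-sided permutation p was 0.1 for each, the smallest that 3 against 3 can give. The mean over all shared positions of the genome moved the same way, as the values above show, and whether the clusters moved more than other sequence of their level was not tested.

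**Figure D2:**
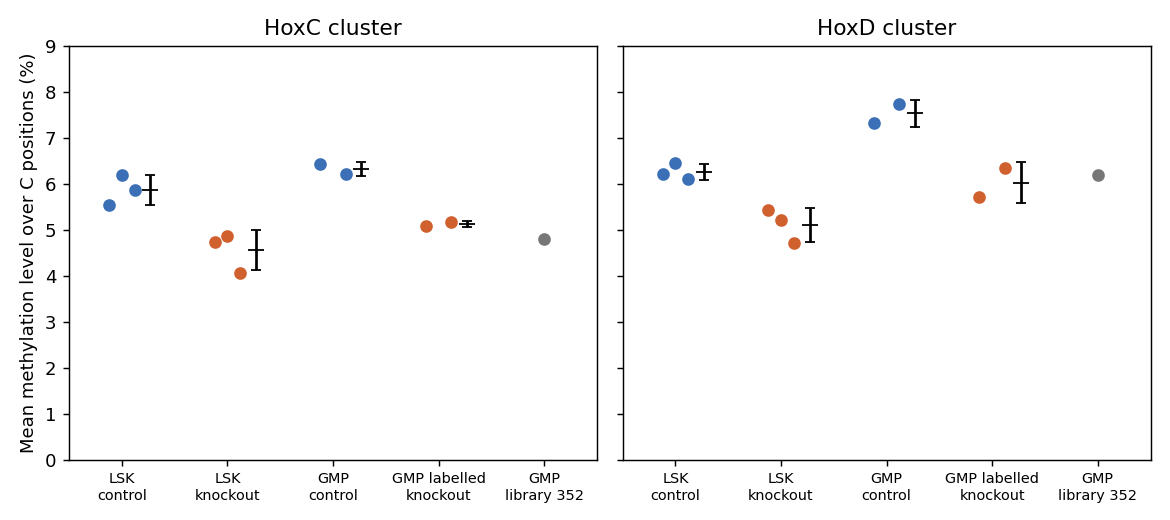
Mean methylation level (%) over the shared C positions of each cluster for every library, with the group mean and SD beside each group of 2 or more. In HoxC and HoxD the libraries labelled knockout lie below the control libraries of the same cell type. Library 352 is shown apart, over the 784 HoxC and 1143 HoxD positions that it also lists.

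No tile of either cluster met the call threshold in LSK, an adjusted p under 0.05 together with 20 percentage points or more (quasi-binomial model, Benjamini-Hochberg over all 107074 tiles), beside 0.874% of all tiles. In this fit each tile's spread between libraries is moderated, that is drawn by limma towards the trend of a prior set of tiles, and a difference is taken from the pooled reads of each group, so it can depart from the gap between the library means. Only 3 HoxC and 7 HoxD tiles had a control level of 20% or more and so had room for such a fall, and 40 of 52 HoxC and 33 of 47 HoxD tiles were under 10%. In simulated LSK data this fit recovered 32 of 50 tiles lowered by 20 points and 50 of 50 lowered by 50 points. At an unadjusted p under 0.05, 12 HoxC and 18 HoxD tiles were lower (background 11.6%) and 0 HoxC and 1 HoxD tiles were higher (background 1.46%). Limma on logit levels also called none, with 15 member tiles lower at an unadjusted p under 0.05. In 16 HoxC and 19 HoxD tiles all knockout libraries lay below all controls, beside 15% of all tiles, and in 0 and 1 they lay above, beside 3.38%. The median difference was -1.19 points in HoxC and -1.40 in HoxD, against -0.373 over all tiles, 61.7% of which lay below 0. Among tiles under 20% in the GMP controls it was -1.15 in HoxC (47 tiles) and -1.22 in HoxD (36 tiles), against -0.0445 over 29381 tiles of the genome. The median control LSK level of these genome tiles was 0.584% and thus below that of the cluster tiles (5.27% and 4.5%). Among tiles at 20% to 80% in the GMP controls the median difference was -5.26 in HoxC (4 tiles) and -3.42 in HoxD (8 tiles), against -3.86 over 14306 tiles of the genome.

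With the size of the difference set aside, 3 member tiles had an adjusted p under 0.05, all lower in knockout LSK, beside 2.35% of all tiles that were lower and 0.0224% that were higher by that rule. This rule was added after the data were seen. The share of the members is near the background. The first is the tile over the start of Hoxd12, a posterior gene of limb and genital development, at chr2:74675001-74676000 with 54 positions. It measured 9.78%, 9.48% and 9.22% in controls and 7.15%, 6.10% and 5.44% in knockouts, without overlap. It fell by 3.28 points (quasi-binomial adjusted p = 0.0227). The printed Hoxd12 stretch ends where the gene begins, so all but its last bases lie outside this tile. In that stretch 3 of the 8 measured cytosines had a lower pooled level in knockout than in control LSK. The 8 together stood at 3.22%, 4.46% and 3.89% in controls and 2.85%, 1.58% and 3.05% in knockouts, without overlap and given without a test. The cytosine 170 bases before the start, the highest of them, stood at 28.2% in control and 18.1% in knockout reads.

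The second tile, chr2:74683001-74684000, lies in Hoxd11, a posterior gene of forearm and kidney development. Its 50 positions stood at 7.95%, 6.39% and 6.14% in controls and 3.92%, 3.01% and 4.38% in knockouts. It fell by 3.18 points (quasi-binomial adjusted p = 0.0416). The third, chr15:103009001-103010000, lies in Hoxc6, a gene of thoracic patterning, and its 16 positions measured 8.74%, 11.3% and 12.0% in controls and 5.34%, 6.80% and 4.87% in knockouts. It fell by 5.12 points (quasi-binomial adjusted p = 0.0486). The 3 values rest on the moderation and on single libraries: none of the member tiles had an adjusted p under 0.05 when the prior was taken from features at 5% to 95%, without moderation, in limma on logit levels, in tiles of 500 bp, or without library 1326, 1330, 1331 or 1334, whereas 8 had one with the spread taken from all 4 groups.

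Hoxc6 held all of the 5 largest HoxC differences in LSK. The tile chr15:103011001-103012000 measured 17.7%, 28.8% and 22.3% in controls and 18.2%, 7.56% and 11.6% in knockouts, a difference of -10.4 points in which library 1327 overlapped the controls (quasi-binomial adjusted p = 0.192). The tile chr15:103005001-103006000 measured 11.7%, 13.8% and 11.9% against 6.64%, 5.48% and 7.86%, a difference of -5.61 points without overlap (quasi-binomial adjusted p = 0.0644). The tile chr15:103000001-103001000 measured 7.12%, 14.5% and 8.04% against 2.85%, 4.04% and 3.07%, a difference of -5.55 points without overlap (adjusted p = 0.110, same fit). Over the tile chr15:103010001-103011000 the groups overlapped, at 13%, 18.8% and 14.2% against 14.0%, 4.46% and 12.3% (adjusted p = 0.483, same fit). The whole Hoxc6 span, 70 positions, averaged 13% ± 2.41 in control and 7.01% ± 1.56 in knockout LSK (SD, n = 3), given without a test.

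The 5 largest HoxD differences in LSK lay in sparse tiles of 3 to 7 positions. The tile at the far end of the methylated Hoxd4 stretch, chr2:74729001-74730000, measured 84.2%, 86.6% and 85.1% in controls and 70.7%, 74.4% and 76.8% in knockouts, a difference of -11.5 points without overlap (quasi-binomial adjusted p = 0.112). The low tile just after the Hoxd4 start, chr2:74722001-74723000, measured 12.1%, 13.6% and 15.0% against 6.86%, 2.72% and 5.70%, also without overlap (adjusted p = 0.142, same fit). The tile after Hoxd9, chr2:74701001-74702000, measured 22.4%, 23.1% and 28% against 19.4%, 22.6% and 12.7% (adjusted p = 0.338, same fit).

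Of the 47 HoxD tiles 39 had a lower pooled level in the knockouts, and 2 of the 5 with the largest differences had a higher one. In Hoxd8, chr2:74706001-74707000 measured 5.04%, 8.62% and 8.53% in controls and 15.2%, 20.9% and 5.32% in knockouts, which overlap (adjusted p = 0.338, same fit). The Mir10b tile measured 53.5%, 67.5% and 47.1% in knockouts, around the control values given above (adjusted p = 0.668, same fit). The dense start of the long RNA Gm38462 in Hoxd8, chr2:74705001-74706000 with 124 positions, stood at 0.420% ± 0.192 in controls and 0.495% ± 0.171 in knockouts (SD, n = 3), and the libraries overlap. The tile chr2:74712001-74713000 in Hoxd3, with 26 positions, measured 0.906%, 0.917% and 0.619% in controls and 1.71%, 1.97% and 1.06% in knockouts, higher without overlap (quasi-binomial adjusted p = 0.389).

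At gene starts, or at both ends of genes whose strand was not given, 38 member features had at least 5 positions within 1000 bp. None met the threshold of 10 points in LSK (quasi-binomial model, Benjamini-Hochberg), beside 1.04% of all 22612 features. At an unadjusted p under 0.05, 16 were lower and 2 higher (background 9.31% and 1.77%), the 2 higher being the same 26 positions counted for Hoxd3 and Gm38462. The 16 lower also hold repeats. The Hoxd1 start and the upper end of Haglr are the same 92 positions, and the windows of the lower and upper ends of Mir615 overlap (60 and 62 positions). Features with an adjusted p under 0.05 at any size were the starts of Hoxd11 and Hoxd12, beside 1.57% of all features. The 173 positions around the Hoxd11 start stood at 4.5%, 3.95% and 4.19% in controls and 2.80%, 2.98% and 2.67% in knockouts, and fell by 1.41 points (quasi-binomial adjusted p = 0.0336). The 64 positions around the Hoxd12 start stood at 9.25%, 9.13% and 8.95% in controls and 7.03%, 5.67% and 5.32% in knockouts, and fell by 3.11 points (quasi-binomial adjusted p = 0.0406). Neither start had an adjusted p under 0.05 with the other prior or without library 1326, 1330, 1331, 1333 or 1334, and 1 of them had one without library 1327.

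Other starts and gene ends did not reach an adjusted p under 0.05. The Hoxd13 start stood at 2.60%, 2.79% and 2.85% in controls and 1.98%, 1.91% and 1.79% in knockouts, without overlap (quasi-binomial adjusted p = 0.146). The Hoxd10 start stood at 11.4%, 10.8% and 12.0% against 9.82%, 9.32% and 8.36%, also without overlap (adjusted p = 0.175, same fit). The upper end of Gm31790, a long noncoding RNA between Evx2 and Hoxd13, stood at 11.5%, 12.8% and 14.4% against 6.97%, 5.79% and 7.85% (adjusted p = 0.0528, same fit). The Hoxd4 start stood at 47.0%, 44.7% and 43.3% against 44.2%, 38.5% and 36.3%, which overlap (adjusted p = 0.553, same fit). The upper end of Hoxc6 stood at 11.3%, 17.9% and 12.8% against 9.65%, 6.83% and 7.26% (adjusted p = 0.164, same fit). The Hoxd1 start, whose window shares its positions with the upper end of the antisense RNA Haglr, stood at 3.82%, 4.94% and 4.46% against 3.89%, 2.67% and 2.97%, with library 1327 among the controls (adjusted p = 0.319, same fit).

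**Figure D3:**
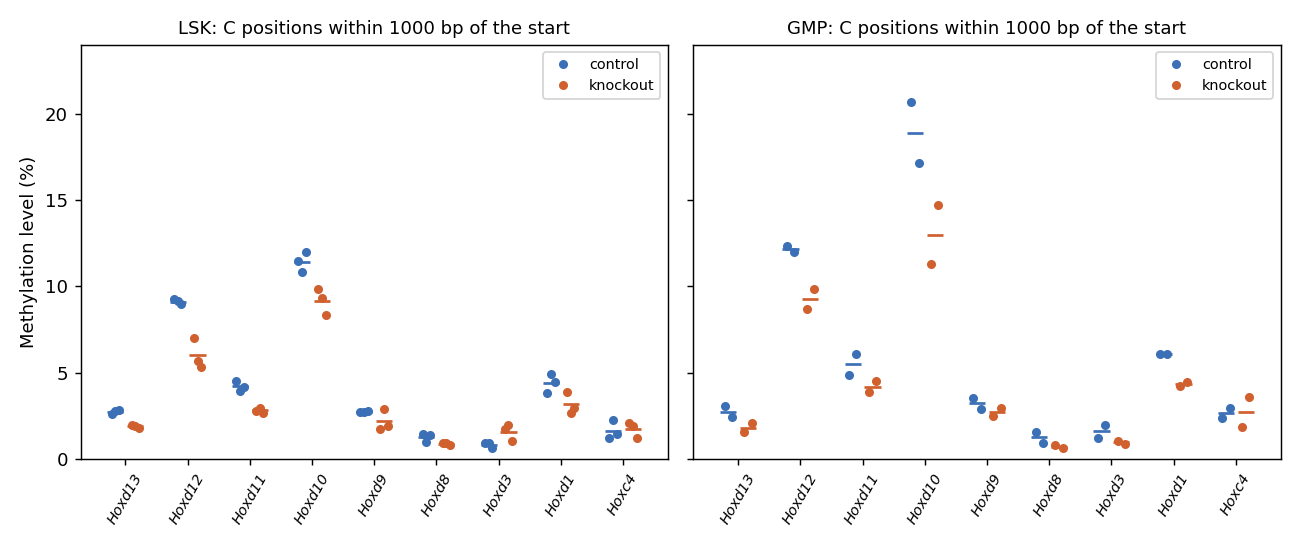
Methylation level (%) within 1000 bp of annotated starts in each LSK (left) and GMP (right) library, blue for control and orange for those labelled knockout, with short lines at the group means. The Hoxd10 and Hoxd12 starts are the highest of those shown, and no library exceeds 1.97% at the Hoxd3 or Hoxd8 start.

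Single cytosines gave no call in LSK. In simulated data this fit recovered 0 of 50 LSK positions lowered by 50 points, so its lack of calls cannot decide whether positions changed. None of the 2154 member positions met an adjusted p under 0.05 with 25 points (0% of all 1403302 positions did), and 158 were lower and 23 higher at an unadjusted p under 0.05 (background 3.84% and 1.26%). With the prior from features at 5% to 95% the counts were 104 and 22 and there was again no call. The largest HoxD difference was at chr2:74747811 in Hoxd3, with 40.9%, 57.1% and 72.7% in controls and 47.1%, 12.9% and 26.3% in knockouts (quasi-binomial adjusted p = 0.857). The position chr2:74704157, just before the Hoxd8 start, stood at 32.7%, 25% and 15.8% in controls and 0% in all 3 knockouts, at a mean coverage of 29.5 reads and the same adjusted p. In HoxC the position chr15:102977763 in Hoxc9 stood at 39.1%, 53.9% and 45.1% against 35.3%, 9.87% and 31.0%, at a mean coverage of 161 reads. The other 2 HoxC positions of the 3 largest lie in Hoxc4, at chr15:103035918 and chr15:103035950, where library 1333 stood apart at 57.7% and 100% and no other library exceeded 23.5%. Without library 1333 the differences were -20.8 points at chr2:74747811, -13.1 at chr15:102977763 and 2.21 at chr15:103035918. The third HoxD position, chr2:74706769, is one of the 3 in the Hoxd8 tile with the higher pooled level and stood at 8.11%, 17.9% and 2.56% against 29.4%, 29.2% and 17.6%.

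In GMP both clusters were lower in the libraries labelled knockout. The HoxC mean was 6.43% and 6.21% in the controls and 5.08% and 5.17% in those labelled knockout, a difference of -1.19 points. For HoxD it was 7.32% and 7.75% against 5.72% and 6.34%, a difference of -1.51 points. Groups did not overlap in either cluster, and the exact two-sided permutation p was 0.333, the smallest that 2 against 2 can give. With genotype permuted within each cell type, the mean of the LSK and GMP differences was -1.25 points in HoxC and -1.33 in HoxD, each with an exact permutation p of 0.0167, the smallest of the 120 arrangements. All 5 libraries labelled knockout lay below the controls of their cell type.

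No member tile met the threshold in GMP, as no tile of the genome did (0% of 107150). In simulated GMP data this fit recovered 0 of 50 tiles, 0 of 50 positions and 0 of 50 gene starts lowered by 50 points. The absence of calls by it in GMP therefore cannot decide whether members changed. With the prior from features at 5% to 95%, 0.275% of all tiles and again no member tile were called. At an unadjusted p under 0.05, 4 HoxC and 7 HoxD tiles were lower (background 7.06%) and 1 HoxC tile was higher (background 1.66%). The libraries did not overlap in 17 HoxC and 20 HoxD tiles that were lower, beside 25.9% of all tiles, and in 2 and 1 that were higher, beside 11.3%. Median differences were -0.796 points in HoxC and -0.922 in HoxD, against -0.345 over all tiles, and the HoxD median was -1.45 without library 346. No member position was called either (0% of all 1367750), with 18 of 2072 lower and 10 higher at an unadjusted p under 0.05, beside 1% and 0.301% of all positions. Of the 38 gene starts or ends none was called (0% of 22634), and 8 were lower and none higher at an unadjusted p under 0.05, beside 7.17% and 1.92%. These 8 include the Hoxd1 start and the upper end of Haglr, which are the same 107 positions, and both overlapping ends of Mir615. Limma on logit levels called no member tile, with 6 lower and 1 higher at an unadjusted p under 0.05.

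**Figure D4:**
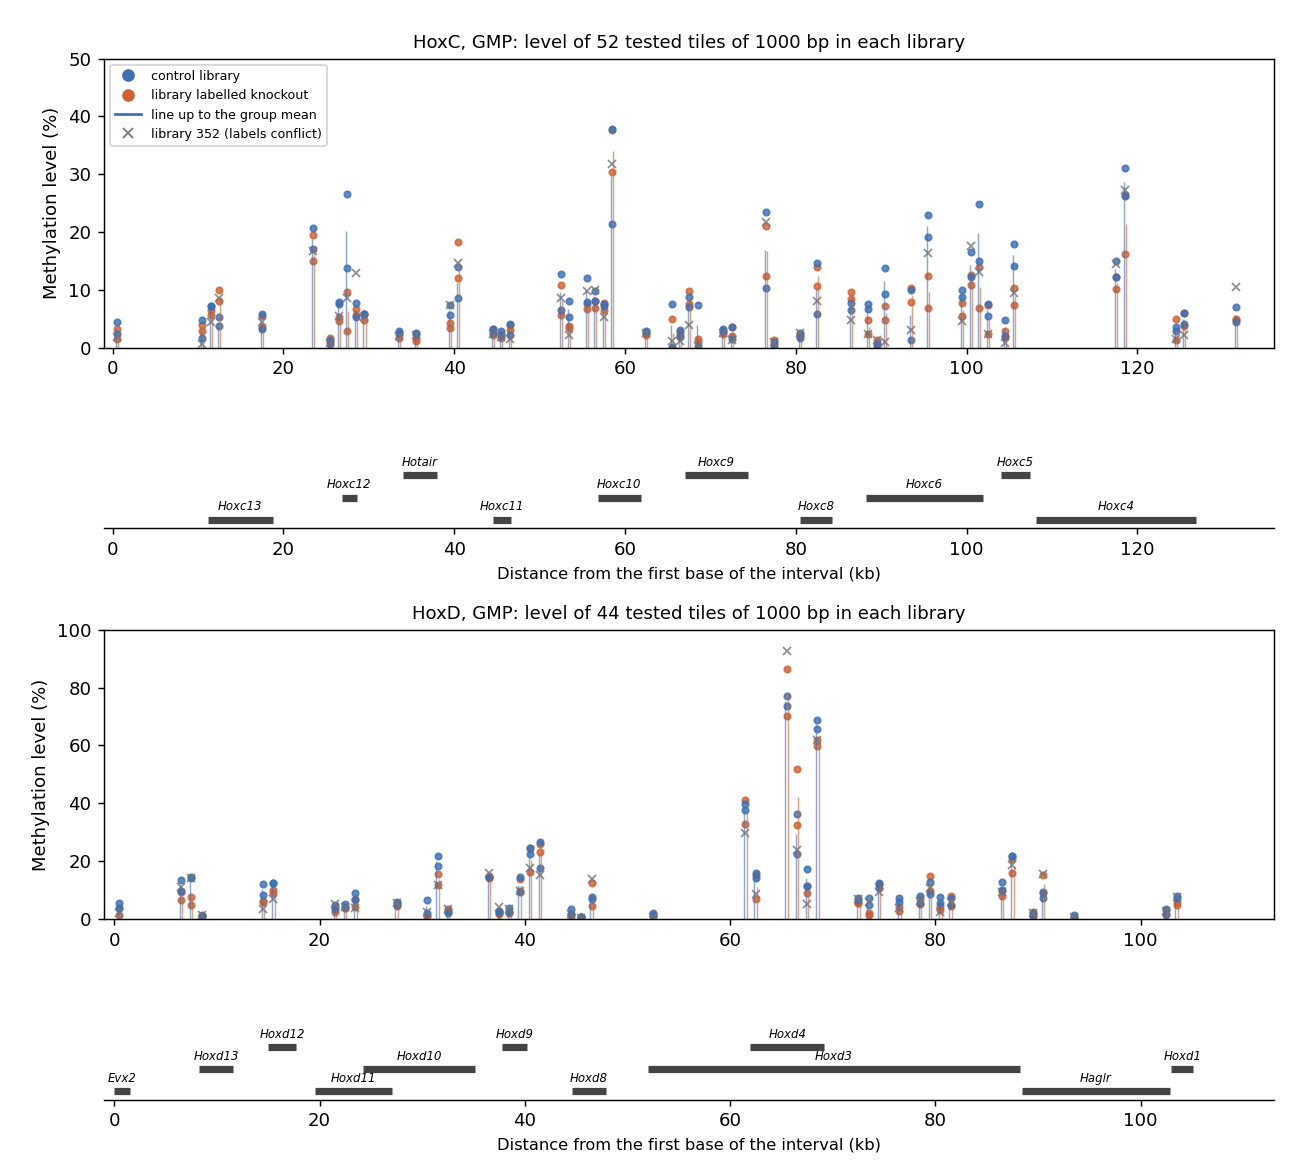
Methylation level (%) of each tested 1000-bp tile in each GMP library against the distance from the first base of the interval (kb), with gene spans under each panel. Points are libraries, lines reach the group means and crosses are library 352. In the GMP controls 2 HoxD tiles reach 50% or more, against 4 in the LSK controls, and no HoxC tile does. The 4 include chr2:74729001-74730000, which was not tested in GMP.

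The 5 largest HoxC differences in GMP lay in Hoxc12, Hoxc6, Hoxc5 and Hoxc4. The Hoxc6 tile chr15:103005001-103006000 measured 22.9% and 19.2% in controls and 12.4% and 6.90% in those labelled knockout (difference -10.9 points, quasi-binomial adjusted p = 0.567), and the Hoxc6 tile chr15:103011001-103012000 measured 15.0% and 24.8% against 14.0% and 6.86%. The tile in Hoxc5 next to Mir615, chr15:103015001-103016000, measured 18.0% and 14.1% against 10.3% and 7.43% (same adjusted p). In Hoxc12, chr15:102937001-102938000 measured 26.5% and 13.7% against 2.96% and 9.63%. The Hoxc4 tile chr15:103028001-103029000 measured 31.1% and 26.2% against 16.2% and 26.4%, which overlap. Without single libraries the difference ranged from -2.61 to -12.8 points at this tile, from -6.33 to -19.1 at the Hoxc12 tile and from -4.64 to -14.4 at chr15:103011001-103012000.

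In HoxD the largest GMP difference was at chr2:74667001-74668000, between Gm31790 and Hoxd13, with 14.6% and 14.0% in controls and 4.81% and 7.75% in those labelled knockout (difference -7.89 points, quasi-binomial adjusted p = 0.567). The Hoxd10 start tile, chr2:74691001-74692000, measured 21.8% and 18.2% against 11.8% and 15.6%, a difference of -6.20 points without overlap. In the methylated Hoxd4 stretch, chr2:74728001-74729000 measured 65.6% and 68.9% against 61.9% and 59.7%, while the Mir10b tile measured 22.6% and 36.4% against 32.5% and 51.9%, with overlap. The low tile after the Hoxd4 start measured 14.1% and 15.7% against 15.1% and 7.06%, with overlap. The tile chr2:74729001-74730000, which gave the largest HoxD difference in LSK, did not have 3 shared positions in GMP.

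Of the tiles tested in both cell types, 28 of 51 in HoxC and 25 of 44 in HoxD were lower in the libraries labelled knockout in LSK and in GMP, beside 39.8% of all 100629 tiles. In 7 HoxC and 8 HoxD tiles (13.7% and 18.2%) the libraries labelled knockout lay below all controls in both cell types, beside 6.5% of all tiles. The 7 HoxC tiles lie at Hoxc13, Hoxc12, near Hoxc10, at Gm36878 in Hoxc9 and, for 3 of them, in Hoxc6. The 8 HoxD tiles lie at Gm31790, before Hoxd13, at the starts of Hoxd12, Hoxd11, Hoxd10 and Hoxd8 and, for 2 of them, in Hoxd3. At the Hoxd12 start tile the GMP libraries measured 12.4% and 12.4% in controls and 8.95% and 10.1% in those labelled knockout, a difference of -2.77 points beside -3.28 in LSK.

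**Figure D5:**
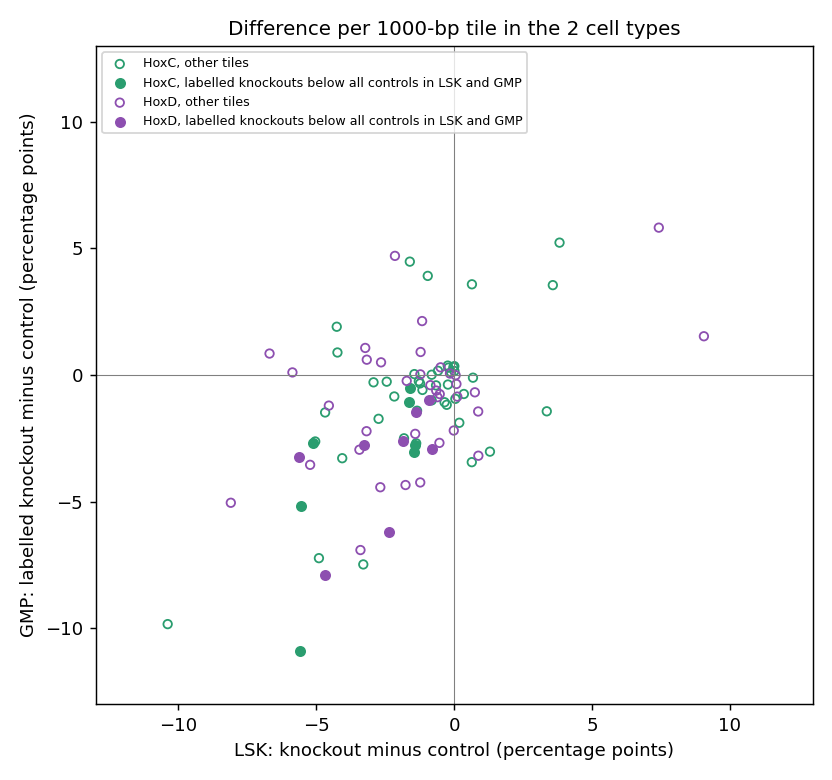
Labelled knockout minus control in percentage points for each 1000-bp tile in LSK (horizontal) and GMP (vertical). Filled points are the 7 HoxC and 8 HoxD tiles whose libraries labelled knockout lie below all controls in both cell types, and more tiles lie to the lower left of the origin than in any other direction.

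A difference in the change between the cell types was not detectable. In the fit over all 4 groups no member tile had an adjusted p under 0.05 for the difference between the GMP and LSK effects, beside 0.00599% of all tiles, and 1 was lower and 2 higher at an unadjusted p under 0.05, beside 2.57% and 3.13% of all 100150 tiles. The smallest p belonged to chr2:74750001-74751000 in Haglr, whose level went from 7.51% ± 1.09 to 5.05% ± 0.990 in LSK (SD, n = 3) and from 8.34% ± 1.60 in control to 12.2% ± 4.56 in labelled knockout GMP (SD, n = 2, interaction adjusted p = 0.813 in the quasi-binomial fit). In Hoxc13, chr15:102922001-102923000 went from 4.40% ± 1.03 to 2.91% ± 0.871 in LSK and from 4.37% ± 1.84 to 8.04% ± 1.89 in the same GMP groups (interaction adjusted p = 0.842, same fit).

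Between the control groups, HoxD was somewhat higher in GMP than in LSK. The 3 LSK control values and 2 GMP control values given above did not overlap in either cluster. The HoxD difference was 1.28 points (p = 0.1 by exact two-sided permutation, as small as this design allows), and the HoxC difference was 0.449 points (exact permutation p = 0.2). As the mean of 1000-bp tile levels the HoxD difference was 0.516 points (exact permutation p = 0.3), and with all positions listed in each library the HoxC difference was 0.775 points. These control libraries are the same as in the knockout comparisons, so the comparisons are not independent. The median tile difference was 0.237 points in HoxC and 1.0 in HoxD, against -0.0666 over all tiles. Without library 346 these medians were 0.0442 and 1.81, and without library 349 the HoxC median was 0.434. No member tile met the 20-point threshold, beside 0.884% of all 104839 tiles, and 2 were lower and 14 higher at an unadjusted p under 0.05 (background 7.81% and 5.81%). In simulated data for this comparison the fit recovered 0 of 50 tiles lowered by 50 points. Its lack of member calls therefore cannot decide whether members differed. The GMP libraries lay above all LSK libraries in 8 HoxC and 14 HoxD tiles, beside 14% of all tiles, and below them in 1 and 4, beside 18.1%.

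The Hoxd10 start tile was the one member with an adjusted p under 0.05 at any size, beside 0.314% of all tiles that were higher and 1.07% that were lower by that rule. Hoxd10 is a posterior gene of limb and motor neuron development. Over the 39 positions shared by the 5 control libraries it stood at 13.1%, 11.5% and 13.2% in LSK and 21.8% and 18.2% in GMP, and was 7.55 points higher in GMP (quasi-binomial adjusted p = 0.0295). In the printed Hoxd10 stretch 11 of the 15 cytosines had a higher pooled level in GMP controls, the largest gap lying 117 bases before the start (6.70% and 33.1%). The stretch lies inside this tile and was printed because of that difference, so its cytosines are not separate evidence. The tile had an adjusted p above 0.05 with the other prior, without moderation, on logit levels and without any one of the 5 libraries.

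A pair of tiles of the methylated Hoxd4 stretch had lower levels in the GMP controls. The start tile stood at 56.4%, 54.3% and 49.5% in LSK controls and 39.9% and 37.6% in GMP controls, a difference of -14.8 points (quasi-binomial adjusted p = 0.0955). The Mir10b tile stood at 52.9%, 47.1% and 47.4% against 22.6% and 36.4%, a difference of -16.0 points (adjusted p = 0.264, same fit), or -26.2 without library 349. Neither pair of groups overlapped. Other tiles of the stretch differed in sign, with -4.03 points at chr2:74725001-74726000, 5.57 at chr2:74727001-74728000 and 1.79 at chr2:74728001-74729000. Over the whole Hoxd4 span the level was 25.7% ± 4.16 in control LSK (SD, n = 3) and 32.2% ± 1.27 in control GMP (SD, n = 2), given without a test. The Hoxc6 tile chr15:103005001-103006000 was at 12.5% ± 1.16 in LSK (SD, n = 3) and 21.0% ± 2.61 in GMP (SD, n = 2, adjusted p = 0.174, same fit). The remaining tiles of the 5 largest per cluster differed by 2.70 to 5.57 points in size, all with an adjusted p of 0.296 or more.

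Other Hox genes and their partners were counted from lists at gene starts, or at both ends where no strand was given. Of the HoxA and HoxB genes, 17 of 21 were measured in 22 features, of which 2 were called lower and none higher in knockout LSK, beside 1.04% of all features. These were Hoxa5, at 51.6% ± 7.50 in control and 22.2% ± 4.53 in knockout, and Hoxa6, at 18.2% ± 0.979 and 4.30% ± 1.21 (SD, n = 3). Of 24 cofactors and regulators in 28 features, 2 were called lower and none higher. One was the lower end of Kdm6b, a histone demethylase gene, at 55.8% ± 3.35 in control and 44.3% ± 2.69 in knockout, while its upper end stood at 1.0% ± 0.788 and 0.438% ± 0.439 (quasi-binomial adjusted p = 0.749). The other was the upper end of Cdx1, a homeodomain activator of Hox genes, at 22.4% ± 2.90 and 11.4% ± 0.756 (SD, n = 3 each). The median difference at the starts of the HoxC and HoxD list was -0.853 points, beside -0.876 for the HoxA and HoxB list and 0.0112 for the cofactor list. In GMP none of the 3 lists had a call.

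Library 352 had a HoxC mean of 4.80% over 784 positions and a HoxD mean of 6.20% over 1143. The control means given above are over 814 and 1187 positions. The genome mean of library 352 was 31.5% over 1265520 positions. The GMP controls stood at 32.7% and 32.8%, but over the larger set of 1293035. With all positions listed in each library, library 352 stood at 35.17%, between the controls 346 (35.14%) and 349 (36.23%). In HoxC 31 of 52 tiles lay below both GMP controls, 13 between them and 8 above, and in HoxD the counts were 20, 16 and 8 of 44. Of all 106573 GMP tiles with reads in library 352, 44.7% lay below both controls. It measured 6.72% at the Hoxd12 start tile and 11.8% at the Hoxd10 start tile, both below the 2 GMP controls. At the Hoxd4 start tile it measured 29.8%, and at chr2:74725001-74726000 it measured 92.7%, above the controls at 77.1% and 73.8%.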

How the data were processed

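Each deposited table has one line per C position, holding its coverage as a count and the C and T shares as percent, per the file headers. Bismark, mm10 and GRCm38 appear in the submitters' processing notes. Fragments of 150 to 400 bp were read with 50-bp single-end reads, per the labels' protocols. Every listed position has at least 10 reads, so a missing position is not a 0. Only MspI fragments are seen, which favours CpG-rich sequence. Methylated reads were computed as coverage times the deposited percent, and a level is their share in a library.

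Group differences are from pooled reads, and means ± SD are over libraries. Tiles of 1000 bp (at least 3 positions), gene starts (within 1000 bp, at least 5 positions) and single positions were fitted over the whole genome with a quasi-binomial model, dispersion moderated by limma 3.58.1 (R 4.3.3, trend on coverage, at least 1) and Benjamini-Hochberg adjustment. Thresholds were an adjusted p under 0.05 with 20, 10 and 25 points. The fit was tested on simulated data. Cluster means used exact permutation tests. Reads carry no molecular identifiers, so depth gives counting error only. Genes came from RefSeq GRCm38.p6, whose promoter table held 4 of the 15 HoxC and 13 of the 16 HoxD genes, so both ends were used for the others. Printed microRNA and promoter sequences come from the same source. The members and lists were chosen with earlier results of these data known. Named tiles were the 5 largest differences per cluster and comparison and those with an adjusted p under 0.05, and named positions the 3 largest per cluster in LSK. Alternatives were other priors, filters, tilings, models and left-out libraries.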

Additional observations from a re-analysis of the deposited data

How the results depend on the processing

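No call of a member tile, position or gene start appeared at the full thresholds under any alternative run. The count of LSK tiles with an adjusted p under 0.05 at any size, 3 as reported, was 0 with the prior from features at 5% to 95%, 0 in tiles of 500 bp, 0 without moderation, 0 in limma on logit levels and 8 with the spread from all 4 groups, and it ranged from 0 to 2 without single libraries. The count of such LSK gene starts, 2 as reported, was 0 with that prior and ranged from 0 to 1 without single libraries. For control GMP against control LSK the count of 1 tile became 0 with that prior, 0 without moderation, 0 in limma on logit levels, 2 at a coverage of at least 20 and 0 without any single library. Cluster means kept their direction under every alternative, and the permutation test over both cell types stayed under 0.05. The other cluster tests could not pass 0.05, as their smallest possible permutation p was 0.1 or 0.333. In LSK the differences ran from -1.06 to -1.55 points for HoxC and -0.94 to -1.65 for HoxD. In GMP they ran from -1.05 to -1.45 for HoxC and -1.14 to -1.82 for HoxD. Over both cell types they ran from -1.13 to -1.50 for HoxC and -1.14 to -1.48 for HoxD. For control GMP minus control LSK they ran from 0.389 to 0.775 for HoxC and 0.516 to 1.56 for HoxD. Several of these alternatives were added after the data were seen. Without single libraries the LSK differences ranged from -6.76 to -2.29 points at chr15:103010001-103011000, -8.13 to -3.65 at chr2:74701001-74702000, 3.67 to 11.8 at chr2:74706001-74707000 and 2.09 to 10.9 at the Mir10b tile. Signs changed without single libraries for the GMP tiles at Mir10b (-0.29 to 19.1 points) and after the Hoxd4 start (-8.03 to 0.0048), for the control GMP minus control LSK tiles in Hoxc10 (-12.4 to 4.03) and Hoxc9 (-4.35 to 0.043) and for the LSK position chr15:103035950 (-3.90 to 38.8), and at a coverage of at least 20 for the Hoxd4 start in GMP (0.33). The causes were not tested. No paired analysis was possible because the groups share no replicate numbers.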
